A study of Mus musculus with 14 samples.

Results

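The genes described here are the variable (V) segments of the mouse immunoglobulin loci, chosen by symbol (Ighv, Igkv or Iglv) and by an FPKM of at least 1 in 1 or more of the 7 deposited columns. FPKM counts sequenced fragments per kilobase of transcript, scaled to the size of the library. This rule selected 222 of the 348 V segments in a table of 49583 genes. They are 115 heavy chain segments on chromosome 12, 104 kappa segments on chromosome 6 and 3 lambda segments on chromosome 16, of which 203 are annotated as functional and 19 as pseudogenes. Because the members were selected on the FPKM values compared here, their levels are a description and carry no test of their own.

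RNA was sequenced from sorted cells of wild type C57BL/6 mice, in 7 groups of 2 samples each with a stated purity above 98%. Spleen Ter cells were Ter-119+CD45-Lin- cells from the spleen of tumor-bearing mice, and the control was the CD45+Ter-119- fraction of the spleen of tumor-bearing mice. Embryonic liver Ter cells (liver Ter) were sorted with the spleen Ter markers at E14.5. The other 4 groups came from bone marrow: HSC (hematopoietic stem cells, c-Kit+Sca-1+Lin-), CLP (common lymphoid progenitors, c-Kit+Sca-1+IL-7R+Lin-), MEP (megakaryocyte-erythroid progenitors, labelled FcγRlo and CD34+) and CMP (common myeloid progenitors, labelled FcγRlo and CD34-), the last 2 also c-Kit+, Lin-, IL-7R- and Sca-1-. As labelled, the CD34 signs of MEP and CMP are the reverse of the gates usual for these cells, so which column holds which progenitor is uncertain, and both names are used here only as labels. The labels do not give the tumor, the ages of the adult mice, or whether samples came from separate animals, so any p-value measures only the spread between these samples. Each deposited column is the authors' mean of 2 samples. Both libraries behind the mean could be recovered for the CMP, MEP, liver Ter and spleen Ter columns. They carry no replicate number, so A stands for the deeper library of a pair and B for the other. The recovered depths were 13410000 to 28540000 fragments. The control, HSC and CLP columns were made in another way and have no recoverable libraries, so values from them have no error and comparisons with them were not tested.

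An immunoglobulin V segment encodes most of the antigen-binding part of an antibody chain. A developing B cell joins 1 V segment to D and J segments at the heavy chain locus (Igh) and then to a J segment at a light chain locus (Igk for kappa, Igl for lambda), and the promoter of the chosen segment drives the rearranged gene. Unrearranged V segments are also transcribed at low levels in early B lineage cells. V RNA is therefore commonly taken to come from B lineage cells and antibody-secreting cells, and the spread over functional segments to describe their repertoire. Which cells gave the V RNA of these columns was not tested. Erythroid and myeloid cells are not known for V segment expression.

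The stretches below are the final 90 annotated coding bases of the segments on which the values turn, from the top of the spleen Ter column (Igkv6-15, Igkv4-55, Iglv1), the leading heavy chain segment (Ighv1-53), the segment farthest above the control (Igkv12-89) and the leading segments of the HSC column (Igkv14-126, Igkv15-103, Ighv11-2). Capitals mark the codon of the last cysteine, the conserved residue that opens the CDR3, the loop at the V-D-J or V-J joint. Ighv1-41, the leading segment of the MEP column, is annotated as a pseudogene with no coding sequence and is shown in lower case throughout. Each lies in a single exon, and positions are on GRCm38 with the sequence written 5′ to 3′ from the GENCODE M21 transcripts.
Igkv6-15, chr6:70406469-70406558, minus strand: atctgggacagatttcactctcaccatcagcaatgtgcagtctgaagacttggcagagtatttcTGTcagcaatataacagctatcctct
Igkv4-55, chr6:69607275-69607364, minus strand: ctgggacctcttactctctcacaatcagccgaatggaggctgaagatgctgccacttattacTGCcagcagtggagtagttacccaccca
Igkv12-89, chr6:68834846-68834935, minus strand: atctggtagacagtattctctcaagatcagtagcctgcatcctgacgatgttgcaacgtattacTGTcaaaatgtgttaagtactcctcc
Iglv1, chr16:19085017-19085106, minus strand: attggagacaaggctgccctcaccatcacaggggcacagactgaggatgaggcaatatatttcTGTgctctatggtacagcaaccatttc
Ighv1-53, chr12:115158403-115158492, minus strand: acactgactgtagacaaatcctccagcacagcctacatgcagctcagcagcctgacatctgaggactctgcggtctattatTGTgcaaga
Igkv14-126, chr6:67896553-67896642, plus strand: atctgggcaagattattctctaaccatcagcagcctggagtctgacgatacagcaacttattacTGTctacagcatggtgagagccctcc
Igkv15-103, chr6:68437836-68437925, plus strand: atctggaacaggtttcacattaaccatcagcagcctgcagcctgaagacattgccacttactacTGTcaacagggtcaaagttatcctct
Ighv11-2, chr12:114048241-114048330, minus strand: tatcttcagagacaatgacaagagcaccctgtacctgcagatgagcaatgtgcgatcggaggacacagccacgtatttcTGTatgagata
Ighv1-41, chr12:114932371-114932460, minus strand: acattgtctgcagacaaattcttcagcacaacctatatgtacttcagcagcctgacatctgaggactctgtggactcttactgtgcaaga
In Ighv1-53 6 bases follow the cysteine codon, while 23 follow it in Igkv6-15, Igkv12-89, Igkv14-126 and Igkv15-103. In the heavy chain a D segment supplies much of the CDR3, and light chains have none.

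Spleen Ter cells had the highest summed V segment level of the 7 columns and liver Ter cells had almost none. The 222 members summed to 10783 FPKM in the deeper spleen Ter library (A) and to 14246 in the other (B), with a deposited mean of 12514 that was 3.33% of all FPKM in the column. The control column held 8743 FPKM (2.24%), HSC 1610 (0.398%) and CLP 695 (0.181%). MEP held 86.7 and 93.3 FPKM in its libraries. CMP held 103.6 in library A and 7.55 in library B, so the CMP mean of 55.6 rested on 1 library. In liver Ter, library A had 4 V fragments in all, 1 each of Ighv1-81, Ighv14-2, Ighv8-6 and Ighv1-5, and library B had 0, against 60563 and 76141 fragments in the spleen Ter libraries. In bulk samples, fewer cells of a type and less RNA per cell cannot be told apart.

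**Figure D1:**
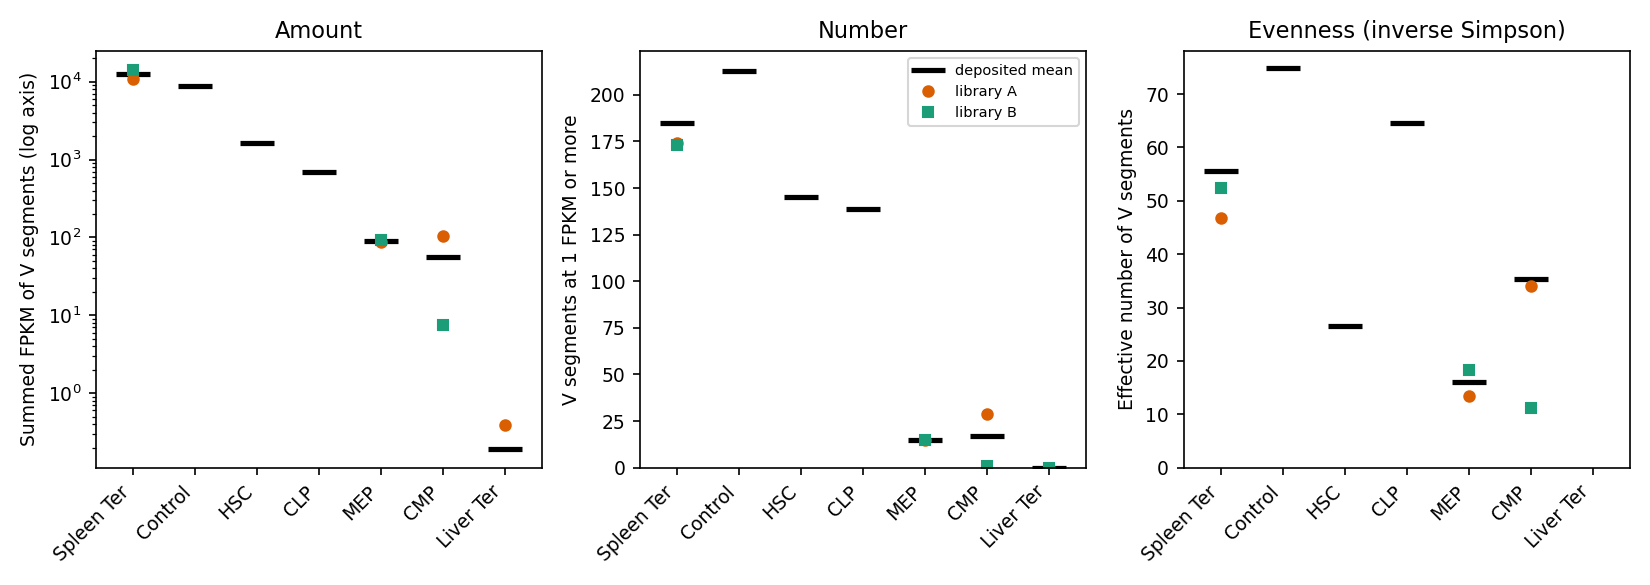
Summed FPKM of the 222 V segments (left, log axis), segments at 1 FPKM or more (middle) and the effective number of segments (right) in the 7 columns, with the deposited mean as a bar and libraries A and B as points where recovered. The 2 spleen Ter libraries sit at 10783 and 14246 FPKM, the CMP libraries at 103.6 and 7.55. Library B of liver Ter is at 0 and is not drawn on the log axis, and evenness is not drawn for liver Ter, which has 4 V fragments.

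The number of segments at 1 FPKM or more was 185 in spleen Ter (174 in library A and 173 in library B) and 213 in the control. HSC had 145, CLP 139, CMP 17 (29 and 1), MEP 15 (15 and 15) and liver Ter 0. Of the 185 segments in spleen Ter, 181 (97.8%) also reached 1 FPKM in the control, and these were 85.0% of the control's 213. The 4 segments that reached it in spleen Ter and not in the control were Ighv8-4, Ighv8-10, Ighv1-41 and Igkv12-40, named after their values were seen. The highest of the 4 was Ighv8-4, at 3.96 and 19.98 FPKM in the spleen Ter libraries and 0.773 in the control. The number at a fixed FPKM moves with the total V level: at an equal 500 V fragments the expected number of segments was 100.05 and 108 in the spleen Ter libraries, 98.3 and 104 in MEP and 94.5 in CMP library A.

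Evenness was measured as the effective number of segments (the inverse Simpson index, the number of equally used segments that would give the same concentration). It was 55.7 for the spleen Ter mean (46.7 in library A and 52.4 in library B), 74.9 for the control, 64.5 for CLP and 26.5 for HSC. MEP had 16.1 (13.4 and 18.4). CMP library A had 34.0, while library B, with 37 V fragments, had 11.2. In spleen Ter 20 segments made up 50% of the V sum, against 28 in the control, 24 in CLP, 13 in HSC and 8 in MEP. The leading segment held 4.79% of the spleen Ter sum (Igkv6-15), 4.23% of the control sum (Iglv1), 14.1% of the HSC sum (Igkv14-126) and 20.3% of the MEP sum (Ighv1-41). In the recovered libraries with at least 500 V fragments the leading segment held at most 22.9%, in MEP library A.

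Kappa V segments outweighed heavy chain V segments in spleen Ter more than in the other columns. Kappa segments held 74.1% of the spleen Ter V sum (77.5% in library A and 71.6% in library B), heavy chain segments 20.1% (14.55% and 24.4%) and lambda segments 5.74% (7.99% and 4.04%). In the control these shares were 57.5%, 35.4% and 7.04%, and in CLP 41.7%, 53.4% and 4.92%. The ratio of light to heavy chain V FPKM was 3.96 in spleen Ter (5.87 and 3.10), 1.997 in HSC, 1.82 in the control, 1.10 in CMP, 0.873 in CLP and 0.256 in MEP (0.209 and 0.302). Both spleen Ter libraries lay above the control column on this ratio, and both MEP libraries lay below every other column except liver Ter, whose 4 V fragments were all heavy chain. The MEP sum was 79.6% heavy chain (82.7% and 76.8%). Of the light chain V FPKM, lambda segments held 7.19% in spleen Ter, against 10.9% in the control.

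The leading spleen Ter segments were light chain segments. Igkv6-15 stood at 396 (A) and 802 (B) FPKM, with 201 in the control column, 11.1 in HSC and 11.6 in CLP. Iglv1, the segment used by most mouse lambda light chains, stood at 675 and 478, against 369 in the control. It overlaps another gene model, 2010309G21Rik. Igkv1-117 was at 431 and 400 FPKM, and 270 in the control. The libraries were close for Igkv1-117 and farther apart for Igkv6-15 and Iglv1, and all 3 segments were above the control in both. Igkv8-30 was at 300.0 and 489 FPKM, and 91.1 in the control. Igkv4-55 had 108 FPKM in A and 775 in B, with 58.0 in the control, so its place among the leading segments came from library B. Of the heavy chain segments, Ighv1-53 showed the same split, at 42.1 and 327 FPKM, with 66.3 in the control between them. Ighv6-3 was at 118 and 223 FPKM (95.1 in the control) and Ighv1-26 at 90.9 and 209 (149 in the control). The lambda segments Iglv2 and Iglv3 followed Iglv1 in spleen Ter with means of 85.0 and 56.9 FPKM, below their control levels of 132 and 114. Iglv3 was at 50.4 and 63.3 FPKM in the libraries. Iglv2 was at 136 and 34.4, so its lower mean came from library B.

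**Figure D2:**
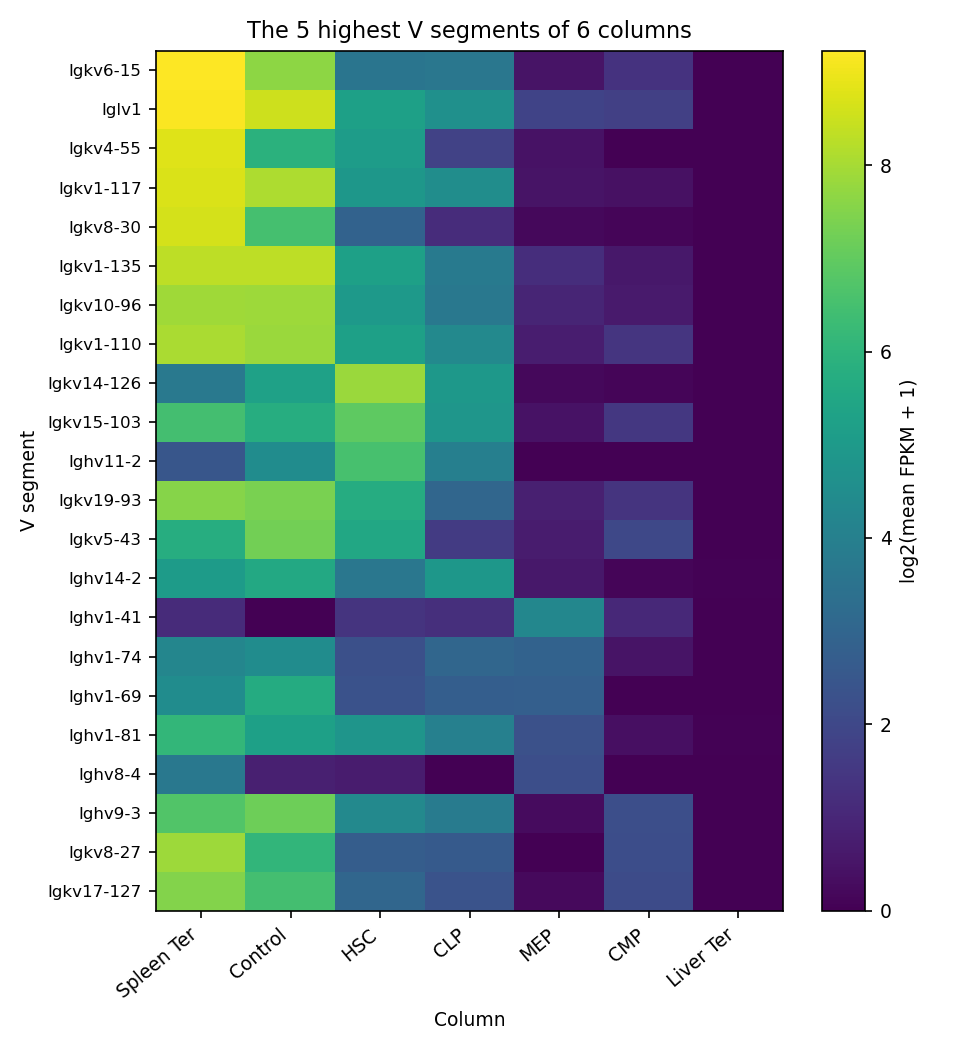
Mean level, as log2(FPKM + 1), of the segments that are among the 5 highest in spleen Ter, the control, HSC, CLP, MEP or CMP (rows) across the 7 columns. Igkv14-126 is brightest in the HSC column at 226 FPKM, Ighv1-41 in the MEP column at 18.3 FPKM, and the liver Ter column is dark in every row.

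Between spleen Ter and the control, 39 of 217 members at 1 FPKM or more in either column exceeded the control by 2-fold or more in spleen Ter, and 60 fell short of it by 2-fold or more, on the FPKM + 1 scale. Over all 13835 genes with that level, 13.5% were 2-fold higher and 28.4% were 2-fold lower. The median log2 ratio was -0.23 for members and -0.32 for all genes. Heavy chain and kappa segments went different ways: of 110 heavy chain segments 6 were 2-fold higher and 44 lower (median -0.65), while for kappa 33 of 104 were higher and 16 were lower, the median being 0.46. None of the 3 lambda segments passed 2-fold by their means, and their median was -0.63. The heavy chain medians were -1.29 with library A alone and -0.53 with library B alone, and the kappa medians 0.10 and 0.35. The lambda medians were 0.04 and -0.84, so the lower lambda level came from library B. These 2 columns were not made alike, so a part of any difference may come from that, which was not tested.

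Of those 217 segments, 18 were at least 2-fold above the control in both spleen Ter libraries and 44 were at least 2-fold below it in both. A further 15 were 2-fold higher in 1 library and 2-fold lower in the other. These counts by library were not made over all genes, so they have no background beside them and are descriptions. Kappa segments were 16 of the 18 that were higher in both, and heavy chain segments 31 of the 44 that were lower in both. Igkv12-89 was farthest above the control of all members at 5 FPKM or more, at 55.4 and 211 FPKM against 10.2, a log2 ratio of the means of 3.59. Igkv9-123 was at 13.7 and 80.1 FPKM against 3.68. Igkv3-4, named after its values were seen, was at 340 and 326 FPKM against 75.4, nearly level between the libraries.

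Other members near the top of that order were high in 1 library only. Igkv1-132 had 109 FPKM in A and 3.61 in B, with 4.36 in the control, so its log2 ratio of 3.42 turns to -0.22 without library A. Igkv12-38 had 2.48 FPKM in A and 87.8 in B, with 3.57 in the control, so its ratio of 3.33 turns to -0.39 without library B. For each of them the other library lay below the control.

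The segments farthest below the control were Igkv2-137, Ighv1-71, Ighv3-8, Igkv5-45 and Ighv8-8. Igkv2-137 was at 0.132 and 0.275 FPKM against 43.9 in the control, a log2 ratio of -5.22, and it overlaps another gene model, Gm42889. Ighv8-8 was at 6.47 and 8.07 FPKM against 81.5. Ighv3-8 was at 0.504 and 0.698 FPKM against 17.1, and Igkv5-45 at 0.860 and 4.11 against 33.8. Ighv1-71 was at 0.369 and 0.383 FPKM against 15.6, on 2 fragments in each library. In these 5 both libraries lay below the control. Ighv5-16, the leading heavy chain segment of the control at 212 FPKM, stood at 19.0 and 49.8 FPKM in spleen Ter.

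**Figure D3:**
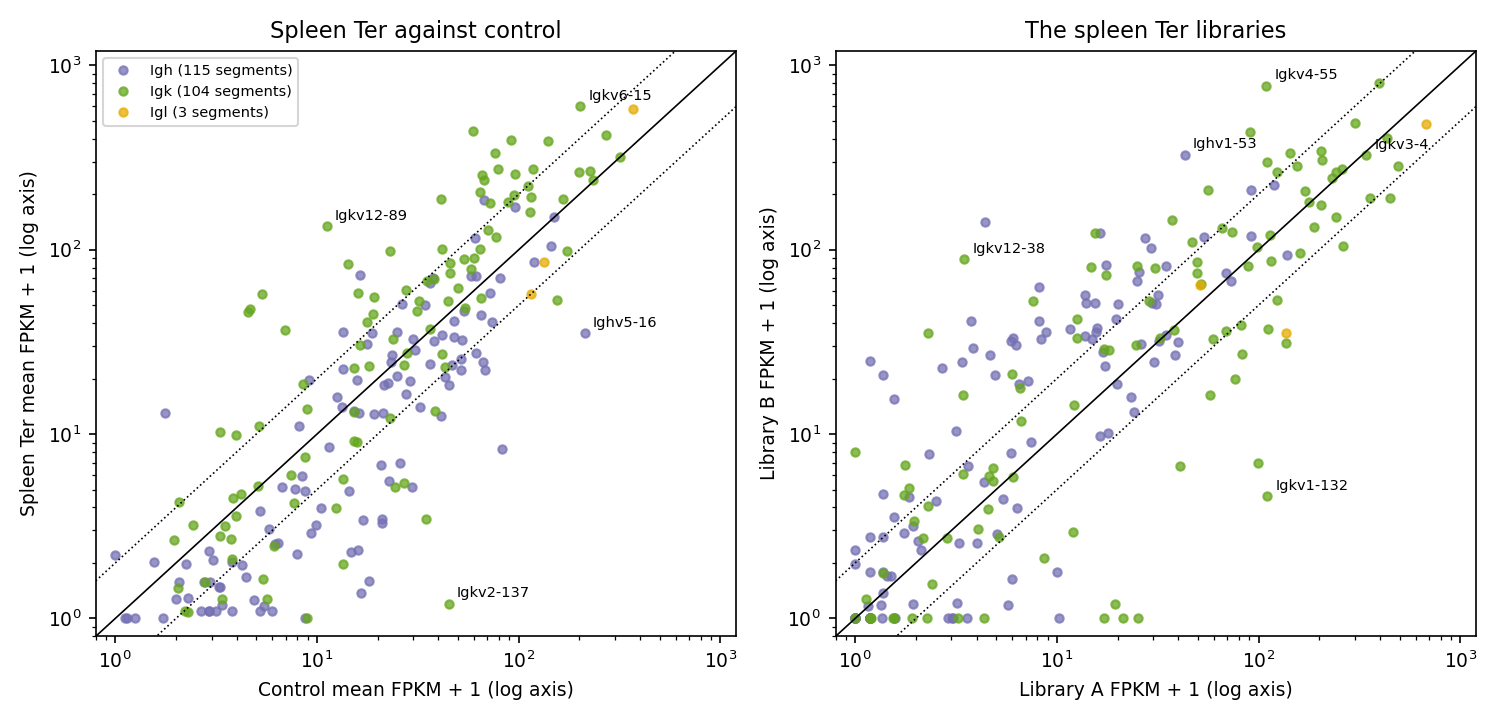
Each point is 1 V segment, by locus: spleen Ter mean against control mean (left) and spleen Ter library B against library A (right), both as FPKM + 1 on log axes, with equality as a solid line and 2-fold as dotted lines. Kappa segments lie above the line more often (33 of 104 beyond 2-fold) and heavy chain segments below it (44 of 110), and 104 of 190 segments lie beyond 2-fold between the libraries.

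Reads from near-identical segments can be split or dropped by the authors' counting, which makes single members uncertain. Ighv1-71 and Ighv1-62-2 differ at 1 of 359 aligned transcript bases. The first 40 coding bases of both are shown because that base, in capitals, lies within them.
Ighv1-71, chr12:115742608-115742647, minus strand: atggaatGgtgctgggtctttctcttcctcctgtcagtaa
Ighv1-62-2, chr12:115446811-115446850, minus strand: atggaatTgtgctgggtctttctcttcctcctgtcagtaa
Ighv1-62-2 was also low in spleen Ter, at 1.05 and 1.64 FPKM against 15.0 in the control. The 4 members with at least 99% identity to another V segment had a median log2 ratio to the control of -2.50, while the medians of the classes with lower identity ran from -0.41 (under 90%, 53 members) to -0.17 (90 to 95%, 58 members). The 4 members summed to 47.3 FPKM in spleen Ter, against 87.3 in the control, so they moved the sums little.

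V segment levels differed between libraries A and B of spleen Ter. Of 190 members at 1 FPKM in either library, 104 (54.7%) were more than 2-fold apart, 31 higher in A and 73 higher in B. Over all 12229 recovered genes at that level, 29.3% were more than 2-fold apart, 700 higher in A and 2888 higher in B. The lean toward library B was thus not particular to V segments. Across the 222 members, Pearson's r of log2(FPKM + 1) was 0.82 between libraries A and B, 0.83 between the spleen Ter mean and the control, and 0.88 between the MEP libraries. Segments within a library share its depth and are not independent, so these are descriptions. The heavy chain sum was 2.21-fold higher in library B and the kappa sum 1.22-fold higher. Igh segments differed in position as well, with the 39 members farthest from the constant genes at 28.6% of the heavy chain sum in A and 41.2% in B.

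The RNA of the constant regions and of B cells was also present in spleen Ter. Igkc, the kappa constant gene, had 15980 FPKM in spleen Ter, against 4381 in the control column. Ighm, the IgM constant gene, had 3915 and 2754. The class-switched Ighg2c was at 99.5 and 616 FPKM in the spleen Ter libraries and 63.6 in the control. Ighd, the IgD constant gene of naive B cells, was at 120 and 234 FPKM, below the control's 622. Of 12 constant genes compared, 6 exceeded the control by 2-fold or more in spleen Ter and 1, Ighd, was below it by as much. Over all 13835 genes compared, 13.5% were higher and 28.4% lower by as much. The columns were not made alike, and the part of this in the differences was not tested. For kappa the ratio of V to constant FPKM was 0.580 in spleen Ter, against 1.15 in the control. For the heavy chain these ratios were 0.511 and 0.867.

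The B cell markers Cd79a, Cd79b, Ms4a1, Pax5 and Cd22 were at 1 FPKM or more in both spleen Ter libraries. They summed to 926 and 1164 FPKM there. The sum was 1822 for the control, 359 for HSC and 528 for CLP. They summed to 28.7 and 31.6 FPKM in MEP, 26.9 and 15.6 in CMP, and 1.22 and 1.40 in liver Ter, where none reached 1 FPKM. The part of B cell RNA in the V values was not tested. Pax5, the factor that holds B cell identity, was at 4.52 and 6.03 FPKM in spleen Ter, against 299 in the control. Plasma cell markers summed to 418 and 584 FPKM in spleen Ter, against 271 in the control, led by Jchain, which joins IgM and IgA chains, at 246 and 332 FPKM against 118. Mzb1 (135 and 172 FPKM against 122), Xbp1 (33.0 and 72.5 against 24.5) and Derl3 (8.03 and 16.4 against 3.52) were also above the control. The remaining genes of the plasma cell list had lower means than the control. Tnfrsf17, a plasma cell receptor, was at 1.95 and 0 FPKM against 1.20. Prdm1, which drives plasma cell formation, was at 1.01 and 2.19 FPKM against 2.04, and Sdc1, a surface marker of these cells, at 0.660 and 5.41 against 4.18. Irf4, a factor of B and plasma cells, was at 21.9 and 21.5 FPKM against 89.6. T cell markers were present too, at 330 and 412 FPKM in spleen Ter, against 465 in the control. The spleen Ter column also carried erythroid RNA (Alas2, 199 FPKM) and the neutrophil gene S100a9 (10967 FPKM).

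Of the 222 members, 162 passed the filter of 1 FPKM in 2 libraries for a limma fit over the 8 recovered libraries. Spleen Ter was called higher (adjusted p under 0.05 and at least 2-fold) than liver Ter for 158 of the 162 and lower for 0, against 42.8% and 10.9% of all 12719 genes tested. Against MEP, 152 were called higher and 2 lower (Ighv1-41 and Ighv1-73), with 23.2% and 18.7% of all genes, and against CMP 156 higher and 0 lower, with 13.9% and 28% of all genes. The members were selected for being high in some column, most of them in spleen Ter or the control, so these counts follow from the choice. Without spleen Ter library A or B, 40 members passed the filter, and 37 and 38 of them were called higher against liver Ter, 36 and 33 against MEP and 36 and 35 against CMP. With quantile normalization in limma, 154 members were called higher against liver Ter, 151 against MEP and 154 against CMP, while the calls over all genes moved from 5444 higher and 1389 lower to 2827 and 2957 against liver Ter, and from 1764 and 3557 to 2088 and 2387 against CMP. The median log2 fold change of members was 4.84 against liver Ter, 4.55 against MEP and 4.70 against CMP, beside 0.79, 0.10 and -0.40 for all genes.

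All 9 tested constant genes were called higher in spleen Ter than in liver Ter, MEP and CMP by limma, but 6 of them (Igha, Ighg1, Ighg2b, Ighg2c, Ighg3 and Iglc3) passed the filter on low values only through the spleen Ter libraries, so their calls follow from the filter. The same holds for 4 of the 11 B cell genes, 4 of the 7 plasma cell genes and 3 of the 12 J segments counted next. Of 11 genes of the B cell receptor and B cell identity, 11 rose against liver Ter, 9 against MEP and 10 against CMP. Btk, a kinase that acts in the receptor's signalling, was the 1 that fell against CMP. Cd79a, a signalling chain of the receptor, rose by 5.07 ± 0.55 over MEP (log2 fold change ± SE, limma adjusted p = 0.000399). This SE pools the spread of 4 groups, and the Cd79a libraries were farthest apart in CMP, at 4.55 and 0.461 FPKM. Of 7 plasma cell genes, 7 rose against liver Ter and 5 against both MEP and CMP. The genes of V(D)J recombination and the surrogate light chain differed by comparison. Of 6 tested, Vpreb3, also present in mature B cells, rose in all 3 comparisons. Against MEP the other 5 fell (Rag1, Dntt, Vpreb1, Vpreb2 and Igll1), against CMP 1 fell (Dntt), and against liver Ter 0 fell. Of 3 genes whose products act at the octamer element of V promoters, Pou2f2 and Pou2af1 rose against liver Ter and MEP, and Pou2af1 against CMP. Against the control the same 2 were at least 2-fold lower, Pou2af1 at 38.5 and 84.7 FPKM against 345. Of 12 tested J segments, 10 rose against liver Ter, 8 against MEP and 7 against CMP, and 1, Ighj1, fell against CMP.

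The HSC and CLP columns held V segments at a lower level than the spleen and with a different order. Against the control, 7 of 215 members were at least 2-fold higher in HSC and 196 lower, beside 16.2% and 10.5% of 14054 genes. In CLP 4 of 217 were higher and 197 lower, beside 17% and 11.1% of 14063 genes. The order in HSC was led by Igkv14-126, at 226 FPKM against 29.5 in CLP, 37.5 in the control and 11.1 and 13.4 in the spleen Ter libraries. Igkv15-103 was at 121 FPKM in HSC (27.7 in CLP, 52.7 in the control), and Ighv11-2 at 92.6 (14.8 in CLP, 21.7 in the control). Ighv11-2 had 64 fragments in spleen Ter library A and 0 in library B. As background, Ighv11-2 paired with Igkv14-126 makes the phosphatidylcholine receptor typical of B-1a cells. Without Igkv14-126 the effective number of segments in HSC was 41.2 in place of 26.5. Igkv19-93 (51.0 FPKM) and Igkv5-43 (44.97 FPKM) came next in HSC. Both were below their control levels of 165 and 154 FPKM.

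The V sum was 2.32-fold higher in HSC than in CLP, by 3.54-fold for kappa and 1.45-fold for heavy chain segments. Of 169 members, 59 were at least 2-fold higher in HSC and 15 lower, beside 3.09% and 2.45% of 13692 genes. Kappa segments were 42 of the 59 and 2 of the 15, and heavy chain segments 16 and 13. CLP was led by Igkv14-126, Ighv14-2 (28.7 FPKM, 11.6 in HSC) and Igkv15-103. In both columns the 34 kappa segments farthest from the constant gene held most of the kappa sum, 60.9% in HSC and 59.9% in CLP, against 44.4% in the control and 38.9% in spleen Ter. The 38 heavy chain segments nearest the constant genes held 51.9% of the heavy chain sum in HSC, 41.8% in CLP and 39.8% in the control. Single segments carried much of the HSC shares. Without Ighv11-2 the heavy chain share was 41.9% in HSC, 39.4% in CLP and 39.4% in the control. Without Igkv14-126 and Igkv15-103 the kappa share was 40.8% in HSC, 50.02% in CLP and 43.4% in the control, so HSC was no longer above the control.

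The HSC column also carried genes of early B lineage cells. All 7 recombination and surrogate light chain genes were at least 2-fold above the control in both HSC and CLP. Dntt, which adds bases at the joints, was at 416 FPKM in HSC and 773 in CLP, against 2.21 in the control. Rag1, the recombinase, was at 40.8 and 91.4 FPKM, against 0.405 in the control. Vpreb1, a surrogate light chain component, was at 152 and 278 FPKM. Kit, a marker of the HSC gate, was at 22.3 FPKM in HSC, and at 22.9 and 23.0 in the CMP libraries. Ly6a, which encodes Sca-1, the other marker of that gate, was at 32.5 FPKM in HSC, below the 104 of the control and the 197 of spleen Ter. Jchain was at 54.9 FPKM in HSC and 10.8 in CLP. The part of such cells in the V values of these columns was not tested.

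MEP had a V profile unlike that of the other columns. Its leading segment was the heavy chain pseudogene Ighv1-41, at 19.9 and 16.7 FPKM. Ighv1-41 was at 1.45 and 0.680 FPKM in the CMP libraries, 2.21 and 0.209 in spleen Ter, 0 in the control, 1.39 in CLP and 1.64 in HSC. The 4 members highest in MEP of all columns were all heavy chain pseudogenes: Ighv1-41, Ighv8-10 (2.84 and 3.20 FPKM), Ighv1-83 (2.55 and 0.851) and Ighv1-73 (1.5 and 1.56), the last 3 named after their values were seen. Pseudogenes held 28.0% of the MEP V sum (32.0% and 24.3%), against 0.137% for spleen Ter, 0.417% for the control, 3.69% for CMP, 1.68% for CLP and 0.389% for HSC. Most of the MEP pseudogene sum, 72.5%, was Ighv1-41 alone.

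Functional heavy chain segments followed in MEP, led by Ighv1-74 (7.41 and 5.53 FPKM), Ighv1-69 (5.67 and 6.10), Ighv1-81 (2.20 and 5.53) and Ighv8-4 (3.82 and 3.55). The heavy chain segments farthest from the constant genes dominated: the 39 farthest members, at chr12:115145487-116000461, held 54.7% of the MEP heavy chain sum (53.8% and 55.5%), and the 38 nearest held 7.84% (6.82% and 8.87%). In CMP library A these shares were 32.5% and 34.3%. Ighv1, the largest mouse heavy chain family, held 75.9% of the MEP heavy chain sum and 53.2% of that in spleen Ter. Its member Ighv1-41 alone held 25.5% of the MEP heavy chain sum.

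**Figure D4:**
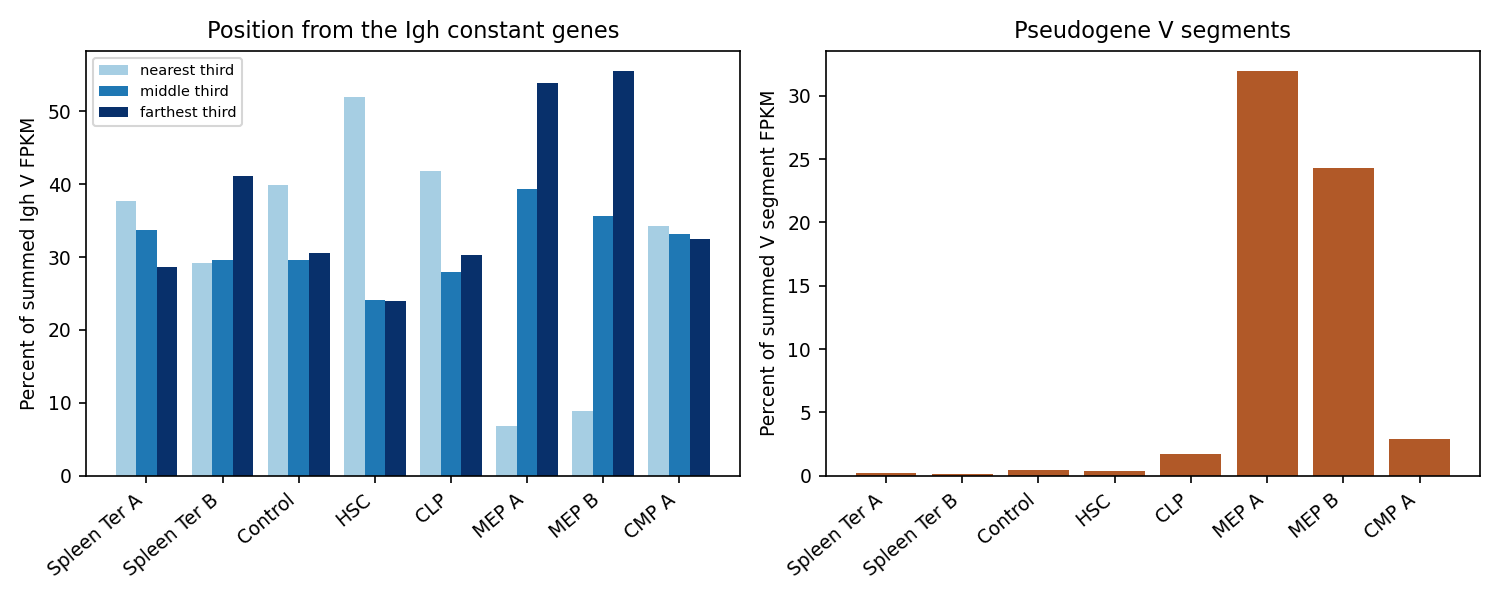
Left, percent of the heavy chain V sum from the 38 members nearest the Igh constant genes, the 38 in the middle and the 39 farthest. Right, percent of the whole V sum from pseudogene segments. Both are given by library or column, without CMP library B (37 V fragments), and the MEP libraries stand apart with 53.8% and 55.5% from the farthest members and 32.0% and 24.3% from pseudogenes.

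Between MEP and CMP, limma called 8 of 162 members higher in MEP and 1 lower, beside 6.87% and 24.3% of all genes tested. All 8 were heavy chain segments, among them Ighv1-41 (log2 fold change 3.24), Ighv1-69 (2.78), Ighv1-74 (2.41), Ighv8-4 and Ighv8-6. Ighv1-41, Ighv1-69 and Ighv1-74 were named for their high level in MEP, so these differences are descriptions. The segment called lower in MEP was Igkv8-27, with 0 fragments in MEP and 5.50 and 1.66 FPKM in CMP. The calls rested on CMP library B, in which 27 of 29 members were more than 2-fold below library A: without it 2 members were called higher and 10 lower. Leaving out any other 1 of the 4 libraries gave 4 to 6 higher and 1 lower. Ighv1-74 and Ighv8-4 lost the call whichever of the 4 was left out, and Ighv8-6 without either CMP library, while Ighv1-41 and Ighv1-69 kept it in each case. With quantile normalization 9 were higher and 1 lower, and the calls over all genes moved from 874 higher and 3090 lower to 1491 and 1534.

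The recombination and surrogate light chain genes were higher in MEP than in CMP for 5 of 6 tested, with 0 lower. Vpreb1 was at 12.01 and 12.3 FPKM in MEP and 0.737 and 0.134 in CMP, a log2 fold change of 3.23 ± 0.25 (limma adjusted p = 0.000281). Igll1, its partner in the surrogate light chain, differed by 2.93 ± 0.21 (limma adjusted p = 0.000233). Of the 11 B cell receptor and identity genes 4 were higher in MEP and 0 lower, and of the 9 constant genes 0 passed in either direction. MEP also carried neutrophil RNA, with S100a9 at 84794 FPKM and Ly6g at 297 and 301. Of 5 erythroid markers, 3 reached 1 FPKM in MEP (Tfrc at 11.1, Hbb-bs at 4.20 and Hba-a1 at 2.77). Alas2 was at 0.192 FPKM and Slc4a1 at 0.216. The part of these cell types in the MEP V values was not tested.

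The CMP segments came almost only from library A. Ighv9-3 was at 7.40 and 0 FPKM, the higher of the 2 members of the Igkv17 family at 6.66 and 0, and Igkv5-43 at 5.95 and 0. Iglv1 was at 4.19 and 0.572 FPKM, and Igkv8-27, at 5.50 and 1.66, was the only segment that reached 1 FPKM in library B. These 5 lead the CMP mean, and library A was higher in each. Cd79a moved with them, at 4.55 and 0.461 FPKM, and Jchain at 1.95 and 0.148. Cd79b did not fall as far, at 19.2 and 14.2 FPKM.

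The threshold of 1 FPKM split the lowest segments on small differences. Just inside it were Igkv4-75 (1.03 FPKM), Ighv8-7 (1.08) and Igkv20-101-2 (1.21), all highest in the control. Just outside were Igkv4-56 (0.979, control), Ighv8-9 (0.955, HSC) and Ighv1-14 (0.926, CLP). Of the 126 V segments below the threshold, 78 were at 0 in all 7 columns. The members were highest most often in the control (117) and spleen Ter (91), and in 5 each for HSC and CLP and 4 for MEP. Of 104 kappa members 66 were highest in spleen Ter, and of 115 heavy chain members 79 were highest in the control.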

How the data were processed

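RNA-seq values were deposited by the authors as FPKM, 1 mean column per group of 2 samples; the genome build is mm10 per the submitters' processing notes, and names of the aligner, counter and annotation were not given in the sources used here. Of 49588 lines, 2 had no gene name and 3 were repeats. GENCODE M21 (GRCm38) gave symbols and lengths for 49324 genes. In 4 columns both libraries' whole fragments were solved from the mean and the exon length, for 96.4% of 14022 genes and all 222 members. Tested on simulated data, this gave 176 of 176 V segments right. limma 3.58.1 (R 4.3.3, eBayes with trend) was fitted to log2(FPKM + 1) of 8 libraries over 12719 genes. It used Benjamini-Hochberg adjustment and had 4 residual degrees of freedom. In simulated libraries of spleen Ter and liver Ter (10910 genes) it called 28% of genes changed 2-fold and 98% of those changed 4-fold. The simulation gave every group the same spread. In the data, 29.3% of genes were more than 2-fold apart between the spleen Ter libraries, and 1.86% between those of liver Ter. The simulated rates therefore need not hold for comparisons with spleen Ter. Planned values per sample were replaced by the recovered libraries, and the fit pools the spread of 4 groups. Named members are the 5 highest per column, the 3 highest per locus in spleen Ter, the 5 farthest from the control in each direction with at least 5 FPKM, and the 3 on each side of the threshold. The members and lists were chosen with earlier results of these data known. Of the marker and pathway lists, 2 genes are not reported here.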

Additional observations from a re-analysis of the deposited data

How the results depend on the processing

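Sums, numbers and evenness were recomputed with member thresholds of 0.5 and 5 FPKM, functional segments only, other weights and leaving out each library; most values moved by less than the spread between libraries (for the control, HSC and CLP, the relative SD of the spleen Ter libraries). The MEP sum was 79.8 FPKM with a threshold of 5 FPKM and 64.8 with functional segments only. The effective number in MEP was 27.2 with functional segments only and 30.4 without its leading segment, and in HSC 41.2 without its leading segment. Leaving out a library, it ranged from 46.7 to 52.4 in spleen Ter, 13.4 to 18.4 in MEP and 11.2 to 34.0 in CMP, and the CMP number at 1 FPKM from 1 to 29. At 5 FPKM the number of segments was 0 in CMP, 3 in MEP, 62 in HSC and 38 in CLP. It was 30 in MEP and 32 in CMP at 0.5 FPKM, and 229 in HSC, 161 in MEP, 109 in CMP and 4 in liver Ter above 0. The totals of called genes, both directions together, stayed within 1.5 times in each of the 4 limma comparisons, but counts by direction did not. With quantile normalization they moved from 5444 higher and 1389 lower to 2827 and 2957 (spleen Ter against liver Ter), and from 874 and 3090 to 1491 and 1534 (MEP against CMP). Without spleen Ter library B the genes called higher fell from 2957 to 1865 against MEP and from 1764 to 958 against CMP, and without MEP library A or B those higher in MEP than in CMP from 874 to 566 and 575. Without Ighv11-2, or without Igkv14-126 and Igkv15-103 (both chosen after the values were seen), the HSC position shares fell from 51.9% to 41.9% and from 60.9% to 40.8%. Of 1657 refits of 229 called values for named genes, 1560 kept the call, 97 lost it and 0 reversed. Values whose gene no longer passed the filter were not counted. The filter of 5 FPKM therefore covers only 200 of the 229, and the fits without spleen Ter library A or B cover 146 and 143 values. Calls that rested on a left-out library could thus drop out uncounted. Named members were chosen for their levels in these columns, and some list genes passed the filter only through spleen Ter. The kept calls therefore follow in part from the choice. Against the control, Igkv1-132 ranged from -0.22 (without spleen Ter library A) to 4.36, and Igkv12-38 from -0.39 (without library B) to 4.28, as log2 ratios. Without a spleen Ter library only 40 members passed the filter of 1 FPKM in 2 libraries. No paired analysis was possible because the recovered libraries carry no replicate numbers. Few V fragments limit liver Ter (4 and 0) and CMP library B (37). These libraries were not shallow, at 28540000 and 17540000 fragments in liver Ter. CMP library B had 13410000, beside 14640000 in CMP library A.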

Other observations

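The heavy chain J segments did not follow the V segments in CMP. Ighj1, a heavy chain joining segment, was at 39.96 and 47.8 FPKM in the CMP libraries, although their V sums were 103.6 and 7.55. It was at 6.24 and 15.6 FPKM in spleen Ter and 3.07 and 0 in MEP, and limma called it lower than CMP in both. Ighj2 was at 10.9 and 23.9 FPKM in the CMP libraries and at 0.662 and 9.63 in spleen Ter. The kappa joining segments did fall with the V segments: Igkj2 was at 4.77 and 0 FPKM in the CMP libraries, Igkj5 at 4.88 and 0, and Igkj3 and Igkj4 both at 1.80 and 0. Igkj1 and the lambda joining segments were at 0 in both. Among the lambda joining segments, Iglj3p was at 24.4 and 23.5 FPKM in spleen Ter, against 0.79 in the control. Iglj2 lies within the gene model of Iglc2, a lambda constant gene. It was at 0 in every recovered library. The columns made in another way held it at 312 FPKM (control), 9.72 (HSC) and 10.3 (CLP). Iglc2 itself had a spleen Ter mean of 497, against 572 for the control. The Iglj2 contrast thus ran along how the columns were made, and a difference in expression was not tested. Joining segments are very short, so their FPKM rest on few fragments.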
